A study of Mus musculus with 2 samples.

Results

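The 28 genes described here make cholesterol from acetyl units, set how much of it the cell makes, or handle the sterol afterwards. They were taken by name from a list that was drawn up with earlier results of these data known but sets no threshold on a measured value, and all 28 were found by Ensembl identifier among the 43346 Ensembl genes of each table. RNA was sequenced from the livers of 2 newborn mice of the inbred strain B6NCrl, 1 liver for each library. The labels give the age as day 0, name no treatment, record no sex, and place both pups in the litter of 1 dam (1 group, n = 2). They also give both samples the same donor identifier, so every SD and every difference between the livers rests on the pup numbers in the labels, and measures only the spread between these 2 samples. They call the assay total RNA-seq and state an input of 10 ng of RNA longer than 200 nt, and they do not say how the first cDNA strand was primed.

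Cholesterol is built in the endoplasmic reticulum and peroxisomes from acetyl-CoA through mevalonate, squalene and lanosterol. The genes of the route are switched on by the sterol regulatory element-binding proteins (SREBPs), membrane-held transcription factors. When sterols are scarce, the escort protein SCAP carries an SREBP to the Golgi, where it is cut and its active part released, and when sterols are plentiful the INSIG proteins hold SCAP back. The liver makes, takes up, esterifies and exports cholesterol, and before weaning it also receives cholesterol from milk.

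The factors bind the sterol regulatory element and act with partners that bind CCAAT boxes, so the sequences before the start sites of 3 genes are shown: an enzyme, an SREBP gene and an INSIG gene. The RefSeq windows on GRCm38.p6 run from 250 bases before a start site to 50 after it, 300 bases in all. A window was found for 22 of the 28 genes, in 30 windows. Stard4, Fdft1, Fdps, Soat2, Scarb1 and Sqle had no entry. Capitals mark a match, on either strand, to TCACNCCAC, a spelling of the sterol regulatory element, or to CCAAT; these spellings do not overlap each other in the windows shown. The window of Hmgcs1 (chr13:119690101-119690400, plus strand) holds both kinds of match.
Hmgcs1: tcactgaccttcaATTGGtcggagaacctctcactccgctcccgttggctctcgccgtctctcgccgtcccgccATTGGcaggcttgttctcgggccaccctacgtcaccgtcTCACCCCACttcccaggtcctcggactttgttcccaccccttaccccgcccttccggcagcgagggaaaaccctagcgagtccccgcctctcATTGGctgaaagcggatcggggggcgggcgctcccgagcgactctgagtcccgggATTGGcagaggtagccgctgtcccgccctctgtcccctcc
For Srebf1 and Insig2, whose transcripts begin at more than 1 place, the windows at an upstream and a main start site are shown. A further window of each gene is not shown. Those of Srebf1 lie on the minus strand at chr11:60222532-60222831, the upstream start, and chr11:60220578-60220877, the start of the main coding transcript.
Srebf1 upstream: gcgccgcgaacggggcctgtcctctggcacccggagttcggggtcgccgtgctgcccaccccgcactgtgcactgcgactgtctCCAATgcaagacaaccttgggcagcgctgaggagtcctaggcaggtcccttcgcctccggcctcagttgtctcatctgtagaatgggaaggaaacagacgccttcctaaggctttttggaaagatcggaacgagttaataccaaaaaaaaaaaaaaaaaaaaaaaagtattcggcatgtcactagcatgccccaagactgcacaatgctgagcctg
Srebf1 main: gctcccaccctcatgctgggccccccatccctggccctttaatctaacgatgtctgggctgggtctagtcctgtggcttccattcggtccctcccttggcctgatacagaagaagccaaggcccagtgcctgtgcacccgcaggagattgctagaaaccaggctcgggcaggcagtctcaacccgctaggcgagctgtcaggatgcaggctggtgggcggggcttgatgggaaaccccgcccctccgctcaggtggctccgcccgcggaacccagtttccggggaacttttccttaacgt
Those of Insig2 lie on the minus strand at chr1:121332540-121332839, the upstream start, and chr1:121327975-121328274, the start of the leading transcript.
Insig2 upstream: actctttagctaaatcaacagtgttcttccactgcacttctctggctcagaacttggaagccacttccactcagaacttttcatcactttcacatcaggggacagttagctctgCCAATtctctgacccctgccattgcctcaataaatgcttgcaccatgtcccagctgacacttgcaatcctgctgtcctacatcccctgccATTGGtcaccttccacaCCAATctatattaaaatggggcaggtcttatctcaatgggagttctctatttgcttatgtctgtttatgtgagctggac
Insig2 main: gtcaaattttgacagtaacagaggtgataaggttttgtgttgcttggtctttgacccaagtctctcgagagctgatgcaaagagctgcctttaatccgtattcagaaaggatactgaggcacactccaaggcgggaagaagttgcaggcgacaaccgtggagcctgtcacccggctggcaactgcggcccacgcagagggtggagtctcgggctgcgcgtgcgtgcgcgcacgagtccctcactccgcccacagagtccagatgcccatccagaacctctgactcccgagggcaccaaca

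TCACNCCAC was present in 408 of 32851 RefSeq promoter windows of mouse genes (1.24%). Among the windows of the cholesterol genes only that of Hmgcs1 held it, as TCACCCCAC on the plus strand 137 bases before the start site. CCAAT was present in 37.4% of all windows and in 21 of the 30 windows here (70.0%). These belong to 20 of the 22 genes with an entry, beside 41.1% of all genes with a window. Hmgcs1 carried 4 CCAAT matches, at 237, 176 and 45 bases before the start and 10 after it. The upstream Insig2 window carried 3 and the window at its main start none. The upstream Srebf1 window carried 1, at 166 bases before the start, and the window at its main start none. The windows also differ in base composition. The GC content was 65.7% for Hmgcs1, 54.3% and 62.7% for the upstream and main windows of Srebf1, and 46.0% and 57.0% for those of Insig2, beside a median of 52.7% over all windows. A match is a stretch of letters, not a measured binding site.

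All 28 genes were detected, at 1 TPM or more in both livers. TPM scales a gene's reads by its length and to the same total in each library, so it can be compared between genes. Where a pair of values is given, the first is pup 1 and the other pup 2. The median of the 28 was 29.8 ± 1.51 TPM (SD, n = 2), and 26 of them lay above 8.96 TPM, the median of the 12711 Ensembl genes at a mean of 1 TPM or more. The levels were uneven: Lcat stood highest at 292 ± 12.8 TPM and Mvd lowest at 4.67 ± 0.502, a ratio of 62.6. Together the 28 genes held 0.126% of all TPM. Total expected counts were 42124582 for pup 1 and 41443673 for pup 2, and the members drew between 255 counts (Mvd in pup 1) and 13396 (Lcat in pup 2). At these depths a count of 0 would allow up to 3 counts, far below every member.

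Hepatocyte markers were all 6 detected, led by Trf at 27602 ± 3091 TPM. The organ also held blood-forming cells, as in any newborn mouse liver, and all 6 erythroid markers were detected, led by Hbb-bs at 36475 ± 1825 TPM. All 6 macrophage markers were present at lower levels, with Clec4f highest at 66.2 ± 1.85 TPM. In bulk RNA of this kind, fewer cells of a type and less RNA per cell cannot be told apart, so the level of a gene here is its level in the whole organ.

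In the mevalonate arm, which turns acetyl-CoA into farnesyl diphosphate, the levels stepped down sharply after the entry enzymes and up again at the end. Hmgcs1 (ENSMUSG00000093930.1, chromosome 13, 119690379 to 119708260), which makes HMG-CoA in the cytosol, stood at 85.9 and 72.6 TPM. Acat2, the cytosolic thiolase that joins acetyl units before it, stood at 34.4 and 31.6 TPM. The 3 enzymes that phosphorylate and decarboxylate mevalonate were all low. Mevalonate kinase (Mvk) stood at 8.20 and 9.03 TPM, and phosphomevalonate kinase (Pmvk) at 12.1 and 11.5 TPM. The decarboxylase Mvd (ENSMUSG00000006517.4, chromosome 8, 122433601 to 122443422) stood at 4.31 and 5.02 TPM. The isomerase Idi1, at 30.8 and 27.3 TPM, and farnesyl diphosphate synthase (Fdps), at 69.3 and 63.7 TPM, lay well above them. In both livers every one of these 3 was thus below every other gene of the arm.

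Squalene synthase (Fdft1), which commits farnesyl units to sterols, stood at 45.4 and 47.4 TPM. Squalene epoxidase (Sqle, ENSMUSG00000022351.10, chromosome 15, 59315077 to 59331192) stood at 34.6 and 30.2 TPM. Lanosterol synthase (Lss), which closes the rings, was lower at 13.2 and 12.1 TPM. The 3 genes kept the same order in both livers.

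The enzymes that trim lanosterol to cholesterol spanned a 13.2-fold range. Sc5d (ENSMUSG00000032018.9, chromosome 9, 42251595 to 42264256), the desaturase that acts near the end of the route, was the highest of the 18 enzymes at 128 and 130 TPM (129 ± 1.15). Dhcr7, which reduces the product of Sc5d, stood at 10.4 and 9.74 TPM, near the bottom. Ebp, the isomerase upstream of Sc5d, stood at 66.0 and 74.3 TPM. Of the demethylating enzymes, the methyl sterol oxidase Msmo1 stood at 51.4 and 43.7 TPM and the ketosteroid reductase Hsd17b7 at 22.2 and 17.7 TPM. The dehydrogenase Nsdhl, which acts between those, stood at 10.1 and 9.45 TPM. The lanosterol demethylase Cyp51 stood at 16.7 and 14.8 TPM and the sterol reductase Tm7sf2 at 38.2 and 39.1 TPM. The enzymes of this stretch were thus not held at a common level, and Sc5d and Dhcr7, which act in succession, lay near its opposite ends.

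**Figure D1:**
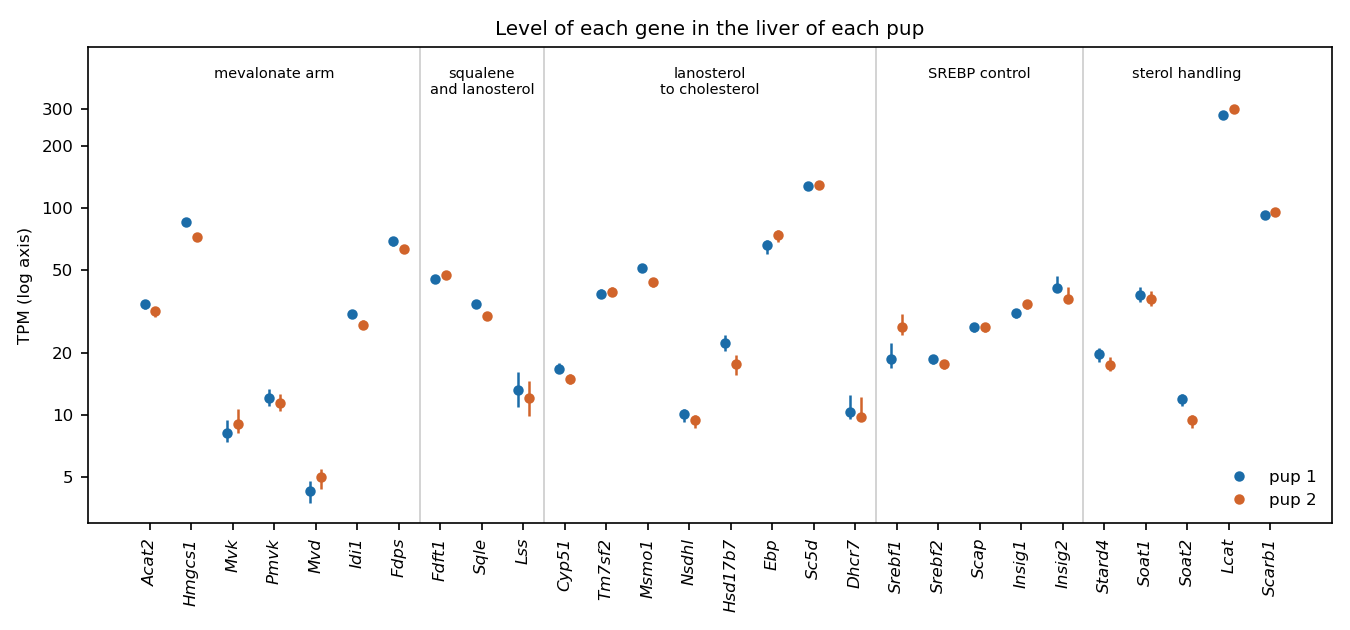
Level of each of the 28 genes in TPM (log axis), pup 1 in blue and pup 2 in orange, grouped by role along the pathway; vertical lines are the authors' credible intervals of TPM, which cover counting and read assignment. Lcat and Sc5d stand highest and Mvd and Mvk lowest, and for most genes the points of the 2 livers lie close beside each other.

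Ratios between successive enzymes put numbers on these steps. A log2 ratio of TPM counted as larger than the spread if it had the same sign in both livers and its mean exceeded 3 SD, and this held for 12 of 15 steps. This is a rule of size and not a test. The deepest falls were from Sc5d to Dhcr7, at -3.68 ± 0.075 (SD, n = 2), a 12.8-fold difference, and from Hmgcs1 to Mvk, at -3.20 ± 0.27, a 9.18-fold difference. The latter step spans a reductase that is not among the 28 genes and is not analysed here. The steepest climb was from Mvd to Idi1, at 2.64 ± 0.28, or 6.23-fold. Nsdhl lay 4.85-fold below Msmo1, at -2.28 ± 0.10, and Ebp 3.54-fold above Hsd17b7, at 1.82 ± 0.35. The 3 steps within the spread were Mvk to Pmvk (0.46 ± 0.15), Fdft1 to Sqle (-0.52 ± 0.18) and Tm7sf2 to Msmo1 (0.29 ± 0.19). The smallest p that an exact sign permutation of 2 livers allows is 0.5, and none is printed.

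Some enzymes have a sister gene in another compartment or a close copy. The mitochondrial thiolase Acat1 stood at 293 and 280 TPM, 8.68-fold above the cytosolic Acat2 (log2 3.12 ± 0.037, SD, n = 2). In both livers the mitochondrial form was therefore the more abundant of the pair. Acat3, a close copy of Acat2 in the mouse, was given 33.6 and 33.7 TPM. Reads that match both copies were divided between them, so the levels of Acat2 and Acat3 are each uncertain. Idi2, the sister of Idi1, had 0 counts in pup 1 and 1 in pup 2.

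Of the genes that control the pathway, all 5 lay within a 2.15-fold range. Srebf2 (ENSMUSG00000022463.7, chromosome 15, 82147181 to 82205379), whose product drives mainly cholesterol genes, stood at 18.5 and 17.5 TPM. Srebf1 (ENSMUSG00000020538.11, chromosome 11, 60199089 to 60222581), whose products drive mainly fatty acid genes, stood at 18.6 and 26.7 TPM. Their ratio by gene TPM did not exceed the spread (log2 -0.30 ± 0.43 for Srebf2 over Srebf1). Much of the Srebf1 TPM sat in a short transcript, described below. In transcripts of at least 1000 nt alone, Srebf1 stood at 10.1 and 11.2 TPM, below Srebf2 in both livers. The escort gene Scap stood at 26.5 TPM in both livers. Insig1 (chromosome 5, 28071363 to 28078662), the retention gene that SREBPs themselves induce, stood at 31.0 and 34.3 TPM. Insig2 (chromosome 1, 121304353 to 121332589), its sister, stood at 41.3 and 36.3 TPM. Insig2 was the higher of this pair in both livers, but their ratio was within the spread (0.25 ± 0.23). Scap lay below Insig2 by more than the spread, at -0.55 ± 0.13.

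The sterol handling genes differed more. Lcat (ENSMUSG00000035237.7, chromosome 8, 105939551 to 105943382), which encodes the plasma enzyme that esterifies cholesterol on lipoproteins, stood at 283 and 301 TPM. Scarb1, the receptor that takes cholesteryl esters from high-density lipoprotein, stood at 92.7 and 95.5 TPM. Stard4, a carrier of cholesterol through the cytosol, stood at 19.6 and 17.4 TPM. Of the enzymes that esterify cholesterol inside cells, Soat1, which many cell types express, stood at 38.0 and 36.4 TPM. Soat2 (ENSMUSG00000023045.8, chromosome 15, 102150526 to 102163469), the form known from hepatocytes and enterocytes, stood at 11.9 and 9.43 TPM. By gene TPM Soat1 was 3.51-fold above Soat2 (log2 -1.81 ± 0.20 for Soat2 over Soat1), and Lcat 27.5-fold above Soat2 (4.78 ± 0.30). Part of the Soat1 TPM sat in short transcripts, described below. In transcripts of at least 1000 nt alone, Soat1 stood at 24.6 and 23.7 TPM, a smaller lead over Soat2. The division of Soat1 between hepatocytes and other cells was not measured; adrenal cortex, where Soat1 is known to be abundant, showed 1 of 6 markers, Hsd3b1 at 49.1 ± 2.04 TPM, with Cyp11b1 at 0 in both livers.

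**Figure D2:**
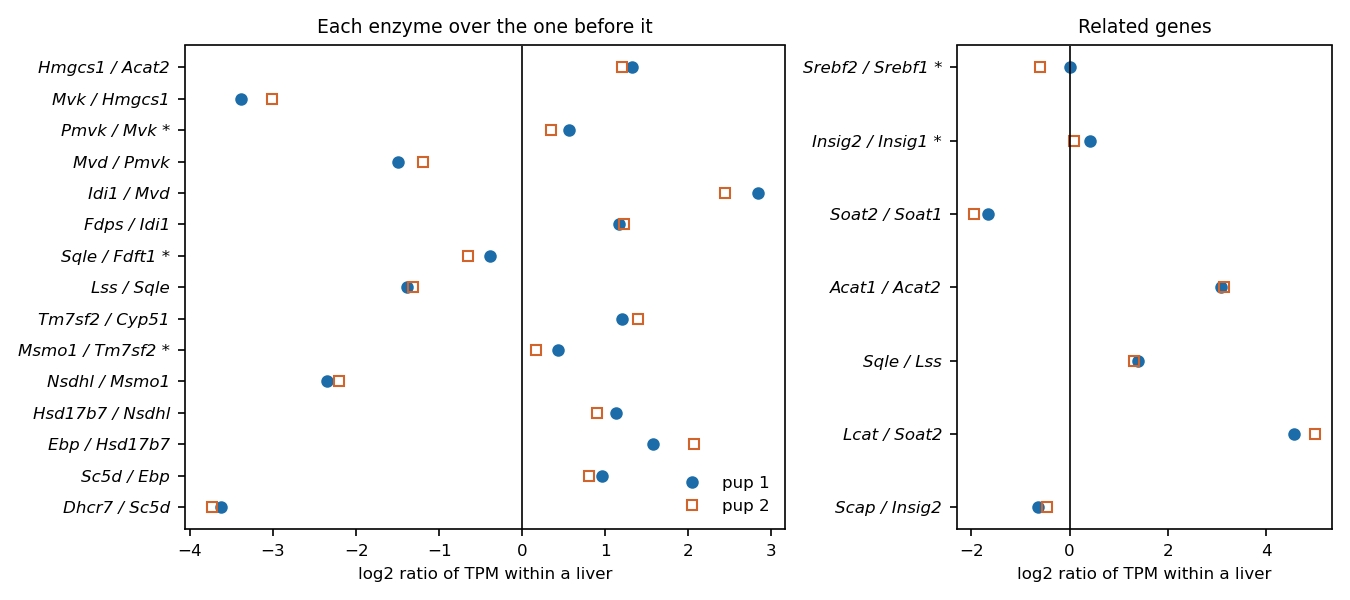
Log2 ratio of TPM within each liver, for each enzyme over the one before it (left) and for related genes (right), with pup 1 as filled circles and pup 2 as open squares; an asterisk marks a ratio within the spread of the 2 livers. The falls from Hmgcs1 to Mvk and from Sc5d to Dhcr7 reach -3.20 and -3.68 on average, and Lcat over Soat2 reaches 4.78.

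The 28 genes differed little between the livers of the 2 littermates. No member was 1.5-fold or more apart by size alone, where 1.43% of the 12711 genes were at least that much higher and 1.26% lower in pup 2. Differences are given as log2 of (TPM + 1) of pup 2 over pup 1. They ranged from -0.31 for Soat2 and Hsd17b7 to 0.50 for Srebf1, and the median of the 28 was -0.08, beside -0.05 over all 12711 genes. By any amount, 18 members were lower in pup 2 and 10 higher, and 63.0% of all genes were lower. The SD of the same difference over the 4929 genes of 10 to 100 TPM, the range that holds 23 members, was 0.28. Of the members Srebf1, Soat2 and Hsd17b7 lay beyond it. The share of all genes beyond that SD was not counted, so this cannot be called few or many. This compares 2 animals with 1 library each and has no replicate check.

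The authors' credible intervals, which cover counting and read assignment but not biological spread, give the finer view. They did not overlap for 11 members, 3 higher and 8 lower in pup 2, where 6.27% of all genes were higher and 13.8% lower by that rule. Of the 18 synthesis enzymes 7 were lower in this sense and none higher: Hmgcs1, Idi1, Fdps, Sqle, Cyp51, Msmo1 and Hsd17b7. Their differences ran from -0.31 to -0.12, and the median of the 18 was -0.10. The higher genes were Srebf1, Insig1 and Lcat, and the eighth lower gene was Soat2. This split depends on the measure. Counts scaled by TMM factors are not divided by length, and they move the median of all genes by 0.055. They have no intervals of their own, so the TPM bounds of each gene were multiplied by its scaled count over its TPM. By these bounds 6 members were higher and 3 lower, beside 11.2% of all genes higher and 6.75% lower. The higher ones were then Fdft1, Ebp, Sc5d, Insig1, Lcat and Scarb1, and the lower ones Hmgcs1, Sqle and Soat2.

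The 5 genes whose intervals stayed apart by TPM, FPKM, TMM, size factors and the leading transcript alone were Hmgcs1, Sqle and Soat2, lower in pup 2, and Insig1 and Lcat, higher. The share of all genes that stayed apart on all these measures was not counted, so these 5 have no background beside them. Hmgcs1 had an interval of 82.9 to 86.2 TPM in pup 1 and 70.0 to 73.1 TPM in pup 2, a difference of -0.24 that ranged from -0.24 to -0.17 over all alternatives run. Sqle had intervals of 32.9 to 35.2 and 28.7 to 30.9 TPM, a difference of -0.19. Soat2 had intervals of 11.05 to 12.6 and 8.67 to 10.0 TPM, a difference of -0.31. Insig1 had intervals of 29.4 to 31.6 and 32.6 to 34.9 TPM, a difference of 0.14. Lcat had intervals of 273 to 283 and 291 to 301 TPM, a difference of 0.09. All 5 are small: pup 2 was 15.4% below pup 1 for Hmgcs1 and 6.42% above it for Lcat.

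Markers of other tissues also differed between the livers. All 8 skeletal muscle markers were higher in pup 2, with summed levels of 51.4 TPM in pup 1 and 778 TPM in pup 2, led by Acta1. Of 7 pancreas markers 6 were higher, with summed levels of 1.96 and 100.5 TPM, led by Ctrb1, and Pnlip was at 0 in both livers. Of 6 intestine markers only Fabp2 was detected, at 37.1 and 42.1 TPM, with Cdx1, Cdx2 and Alpi at 0 in both livers. Hepatocyte markers differed too: Alb, Ttr, Trf and Tat were lower in pup 2 and Apoa1 and Serpina1a higher, each with intervals apart. Their median difference was -0.17 by TPM and -0.11 by TMM, beside -0.10 and -0.040 for the 18 enzymes, and their summed levels were 7.39% of TPM in pup 1 and 6.83% in pup 2. Tat, at 94.4 and 56.4 TPM, was the 1 hepatocyte marker at least 1.5-fold apart. Apoa1 and Serpina1a differed by only 0.862% and 1.65%. Of 6 erythroid markers 3 were higher and 2 lower in pup 2 by the intervals, with summed levels of 6.41% and 6.69% of TPM. Of 6 macrophage markers 2 were lower and 0 higher. Of all genes 6.27% were higher and 13.8% lower by that rule. The part of these differences in those of the cholesterol genes was not tested.

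**Figure D3:**
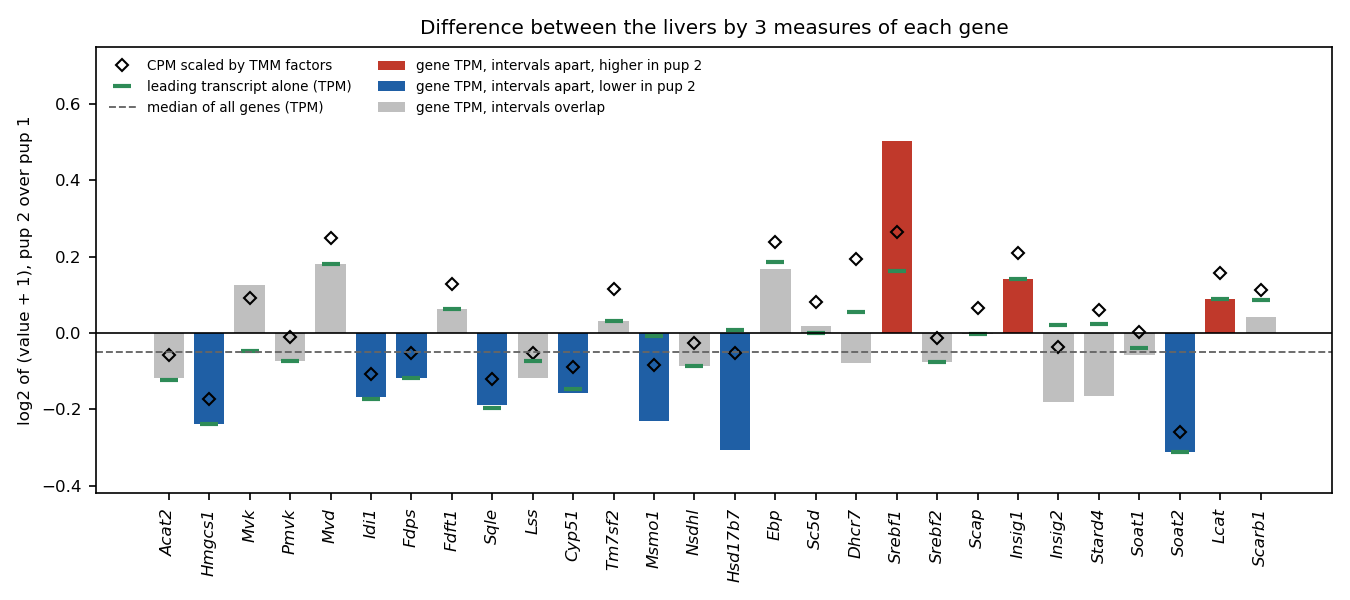
Log2 of pup 2 over pup 1 for each gene on the (value + 1) scale: bars for TPM, coloured where the authors' credible intervals do not overlap, diamonds for counts scaled by TMM factors, and green dashes for the leading transcript alone. The dashed line is the median of all genes, -0.05; for Srebf1, Msmo1 and Hsd17b7 the bar stands apart while the leading transcript lies near 0 or well inside the bar.

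The transcript tables show in which RNAs of a gene a difference sits. The 28 genes have 134 annotated transcripts, and in 16 genes 1 transcript held 95% or more of the gene's TPM in both livers. These included Hmgcs1, Fdps, Sqle, Srebf2, Scap, Insig1, Soat2 and Lcat, so their gene and transcript levels are nearly one measurement. When the leading transcript of each gene, the one with the most counts, was taken alone, 8 of the 11 genes still had intervals apart, 2 higher and 6 lower, beside 6.08% of all genes higher and 13.3% lower on that measure. The 3 that did not were Msmo1, Hsd17b7 and Srebf1. Shares of overlapping transcripts rest on how the authors' program assigned reads.

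Srebf1 showed the largest difference of the 28 genes by TPM, and on that scale most of it sat in a short transcript. By size factors Srebf1 differed by 0.25 and Soat2 by -0.27, and by leading transcripts by 0.16 and -0.31, so Soat2 then differed more in size. Srebf1-204 is annotated as a processed transcript of 367 nt in 2 exons, with no open reading frame. It stood at 7.75 TPM in pup 1 (interval 5.27 to 10.4) and 14.9 TPM in pup 2 (11.8 to 18.1). It thus made up 41.8% and 55.7% of the gene's TPM but only 4.84% and 8.08% of its expected counts, 73.9 and 143, since few reads on a short RNA make a high TPM. Of its 367 bases, 308 are also exonic in the main coding transcript Srebf1-201 and 59 are its own. Srebf1-201, of 4299 nt and 1134 codons, stood at 8.05 and 9.13 TPM with overlapping intervals. It held 1203 and 1373 of the gene's 1525 and 1768 expected counts, so in counts most of the difference of the gene lay in Srebf1-201. Per total count, pup 2 over pup 1 was 1.96 for Srebf1-204 (exact 95% interval 1.47 to 2.64, counting error only) and 1.16 for Srebf1-201 (1.07 to 1.25). The coding transcript Srebf1-207, of 3177 nt and 1022 codons, stood at 1.65 and 1.77 TPM, with a ratio of 1.095 (0.890 to 1.35). Of the 3, only the short transcript had intervals of TPM that did not overlap.

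These transcripts begin at different places on the minus strand of chromosome 11. Srebf1-204 begins at 60222581, at the window printed as upstream, Srebf1-201 at 60220604, 1977 nt further along, and Srebf1-207 at 60210465, another 10139 nt on. The start of Srebf1-201 carried 78.9% of the gene's counts in pup 1 and 77.7% in pup 2, and the start of Srebf1-207, with Srebf1-208, carried 11.9% and 11.02%. With reads as assigned, the coding start with the most counts in both livers was the one at 60220604. Srebf1-201 and Srebf1-207 share most of their exons and differ in length. These shares thus rest on how reads were divided between them, and the use of the starts was not tested. Under TMM scaling of the gene's counts the difference of Srebf1 was 0.26, with overlapping intervals (the TPM bounds rescaled). By TPM, the difference of Srebf1-201 alone was 0.16, also with overlapping intervals. These 2 values are on different scales.

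Insig2 is likewise read from 2 start regions that hold all of its counts, and with reads as assigned they differed in opposite directions. The upstream one, at 121332589 on the minus strand of chromosome 1, begins Insig2-202 and Insig2-209, and held 9.21 and 12.4 TPM. It carried 12.3% of the gene's counts (323) in pup 1 and 19.0% (465) in pup 2. The other, from 121328024, lies 4565 nt further along and begins 8 transcripts, with 32.1 and 23.9 TPM. Its leading transcript Insig2-201 was level at 20.3 and 20.6 TPM. The difference there sat in Insig2-208, at 9.77 TPM in pup 1 and 0 in pup 2, all of whose 1204 bases are also exonic in Insig2-201. All but its first exon of 26 nt is exonic in Insig2-202 as well. The opposite directions thus rest on how reads were divided among these transcripts, and a difference in the use of the starts was not tested. Insig2-201, Insig2-202 and Insig2-208 all encode the same length of 225 residues. The intervals of Insig2-202, at 7.45 and 10.7 TPM, overlapped, and so did those of the gene.

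Msmo1, Hsd17b7 and Stard4 were alike in that the leading transcript was level while the TPM of the gene was lower in pup 2. Msmo1-201 stood at 33.9 and 33.7 TPM, while the processed transcript Msmo1-206 of 1329 nt stood at 16.0 and 9.15 TPM with intervals apart. Hsd17b7-201 stood at 10.6 TPM in both livers. Hsd17b7-204, a processed transcript of 810 nt, stood at 7.60 and 3.85 TPM and Hsd17b7-202 at 3.36 and 1.12 TPM. Hsd17b7-203, of 593 nt, went the other way at 0.64 and 2.11 TPM, and the intervals of all 3 overlapped. Stard4-201 stood at 13.9 and 14.2 TPM, and Stard4-202 at 1.82 and 0 TPM. Unlike those of Msmo1 and Hsd17b7, the gene intervals of Stard4 overlapped, and its expected counts were 2625 and 2630. In these 3 genes the share of the leading transcript was higher in pup 2 by 11.2, 12.4 and 10.6 percentage points, the only shifts of 10 points or more among the 28 leading transcripts. Taken by its leading transcript, Hsd17b7 differed by 0.0087, with the sign turned.

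**Figure D4:**
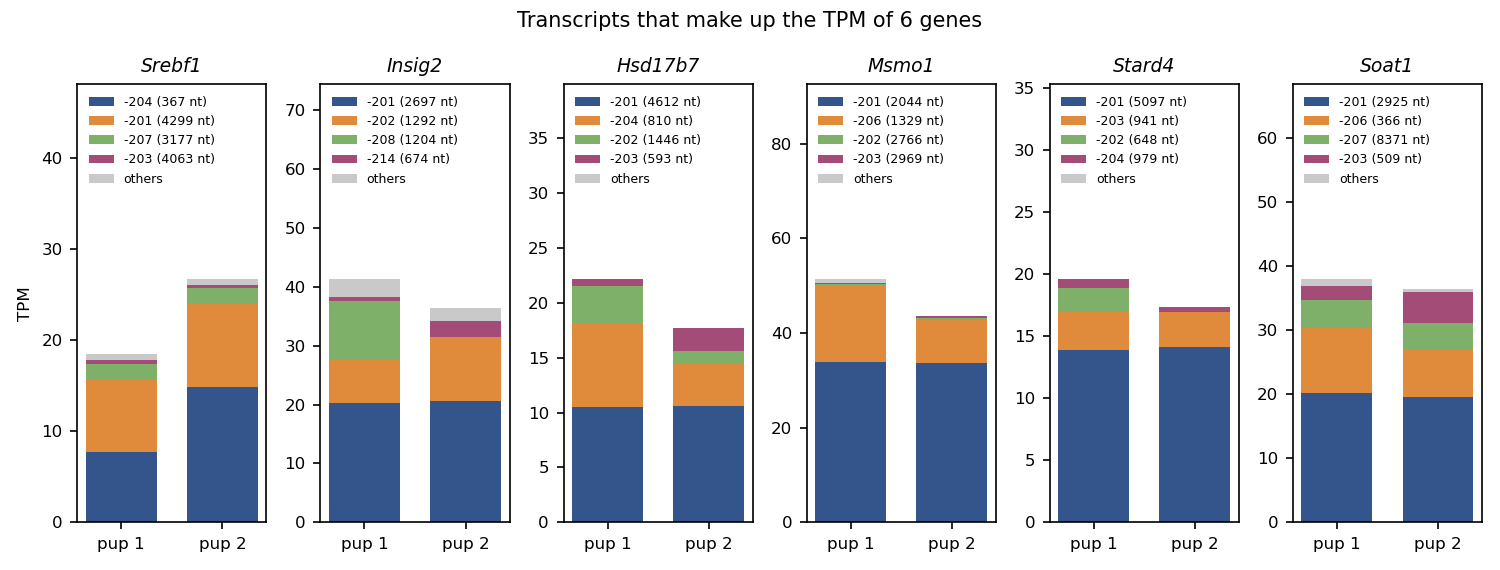
TPM of the annotated transcripts of 6 genes in each liver, stacked, with transcript lengths in nt in the legends and minor transcripts in grey. In Srebf1 the transcript of 367 nt stands at 7.75 TPM in pup 1 and 14.9 in pup 2, while the leading transcript of Insig2, Hsd17b7, Msmo1 and Stard4 keeps nearly the same height.

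Some genes were read as several transcripts. Those of Ebp had similar shares in both livers. Ebp-201, the full coding form, held 44.2% of the gene's TPM in pup 1 and 44.9% in pup 2, the shorter Ebp-203 34.6% and 35.0%, and Ebp-202, which retains an intron, 20.2% and 19.7%. Scarb1-201, of 509 codons, stood at 68.2 and 72.4 TPM, and Scarb1-202, of 506 codons, at 19.2 and 18.1 TPM. Of the transcripts of Soat1, the leading Soat1-201 stood at 20.2 and 19.6 TPM, and the long Soat1-207 of 8371 nt, which encodes the same 540 residues, stood at 4.38 and 4.08 TPM. The remaining TPM of Soat1 sat mainly in short transcripts, with Soat1-206 of 366 nt at 10.2 and 7.36 TPM and Soat1-203 of 509 nt at 2.19 and 4.94 TPM. In Lss the coding Lss-201 held 53.2% and 54.8% of TPM, while 2 short noncoding transcripts moved in opposite directions, Lss-205 from 22.6% in pup 1 to 12.4% in pup 2 and Lss-202 from 12.7% to 22.4%. These minor transcripts of Soat1 and Lss had overlapping intervals.

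The genes around the pathway were measured from lists drawn up for this purpose, 67 genes in 8 lists. Of these 62 were detected in both livers and none was 1.5-fold apart. Of the 63 at a mean of 1 TPM or more, 4 had intervals apart higher and 12 lower in pup 2, beside the 6.27% and 13.8% of all genes. The machinery that cuts SREBPs and degrades sterol-regulated proteins was complete, with all 12 genes detected. It ranged from Mbtps2, the second of the Golgi proteases, at 3.56 ± 0.502 TPM to Vcp, the segregase that pulls proteins out of the membrane, at 119 ± 11.6 TPM. Of its 12 genes 1 was higher and 3 lower by the intervals. All 10 genes of the isoprenoid branches, which draw on the same precursors for prenylation, dolichol, haem A and coenzyme Q, were detected, from Pggt1b at 3.71 ± 0.728 TPM to Fnta, a subunit of the prenyltransferases, at 24.6 ± 0.502 TPM.

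All 4 genes that feed electrons to the sterol enzymes were detected, from Cyb5b at 19.0 ± 2.55 TPM to Cyb5a at 1584 ± 54.7 TPM. Cyb5a, cytochrome b5, passes electrons to the desaturase made from Sc5d and to the demethylating oxidase made from Msmo1, and was more abundant than any of the 28 genes. Of 3 other targets of SREBP-2, Tmem97 stood highest at 70.2 ± 1.75 TPM and Mmab lowest at 3.79 ± 0.509 TPM, and none had intervals apart.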

How the data were processed

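Whole-liver RNA of 2 littermates was sequenced as 1 library each. The authors deposited gene and transcript tables in the layout of RSEM. The notes that came with the deposited files name mm10 and GENCODE M4; an aligner and its version were not given in the sources used here. In the deposited expected counts, reads that match several features are divided among them. The deposited TPM and FPKM divide reads by effective length and scale them over the table and to the library. The deposited credible bounds are a signal on the TPM scale, with a level that the file headers do not give. The deposited percent of each transcript is its share of the gene's TPM.

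Symbols and coordinates came from GENCODE M21 on GRCm38 by Ensembl identifier, and promoters from RefSeq. Intervals and the floor of 3 counts cover counting error only. For FPKM, TMM and size factors, the deposited TPM bounds of each gene were multiplied by its value on that scale over its TPM. The members, the gene lists and the tests were chosen with earlier results of these data known. All 28 members are named; of other lists the highest and lowest gene by mean TPM and any gene 1.5-fold apart, and of marker lists the highest. Other genes named (the other hepatocyte markers, Fabp2 and genes listed at 0, and in the closing section Abca1, Abcg5, Abcg8 and the lipogenic genes lower in pup 2) were chosen after their values were seen. A pair planned for comparison is not reported here. With 1 group there was no contrast to test. Livers were compared on log2(TPM + 1), with a pseudocount of 1, which understates the change of low genes, over the 12711 genes at a mean of 1 TPM or more. The alternatives were a pseudocount of 0.1, posterior mean TPM, FPKM, counts rounded and scaled by TMM factors (edgeR 4.0.16, R 4.3.3) or median-of-ratios size factors, other floors, and, chosen after seeing the data, long or leading transcripts alone and start regions (5′ ends within 1000 nt). Python 3.11.15, pandas 2.3.3, numpy 2.4.6, scipy 1.17.1 and matplotlib 3.10.9 did the rest. The joint rule of intervals apart and at least 1.5-fold was tested on simulated counts with 2-fold changes. No member met that joint rule, so the simulation does not cover the calls by intervals alone.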

Additional observations from a re-analysis of the deposited data

How the results depend on the processing

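Detection of all 28 genes, the 12 steps and the 5 gene pairs beyond the spread, and the absence of a 1.5-fold difference held under every alternative run for them, except that at a floor of 5 TPM 27 genes were detected. The steps and pairs were not rerun on long or leading transcripts. Leaving out either liver left 28 to 28 genes detected and a median of 28.8 to 30.9 TPM. The measure used moved the interval calls, with TPM bounds rescaled gene by gene. Higher in pup 2 were 5 by FPKM, 6 by TMM and 6 by size factors, in place of 3. Of all 12711 genes, 1079, 1429 and 1310 were higher by these measures, in place of 797. Lower were 3 by TMM and 3 by size factors, in place of 8. By FPKM the lower ones were Hmgcs1, Idi1, Sqle, Msmo1, Hsd17b7 and Soat2. Of all genes, 1286 were lower by FPKM, 858 by TMM and 958 by size factors, in place of 1760. The median log2 difference of the 28 genes, -0.078, was -0.046 by FPKM, -0.0041 by TMM, -0.014 by size factors and -0.0049 by leading transcripts. That of the 18 enzymes, -0.10, was -0.040 by TMM, -0.049 by size factors and -0.060 by leading transcripts. Hsd17b7 reversed to 0.0087 by its leading transcript, since its difference sits in other transcripts. The 1 gene whose top transcript by share of TPM differed between the livers became 0 with posterior mean percentages. For the rest the cause was not tested. By sign, 21 of 28 genes kept their direction in all 8 alternatives; Mvk, Hsd17b7, Dhcr7, Scap, Insig2, Stard4 and Soat1 did not. No paired analysis was possible because the samples form 1 group. With 1 liver left out a pair has no SD, so the count of pairs has no such value, and sums over long transcripts have no interval. With 1 library per animal, depth and intervals speak of counting and read assignment only.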

Other observations

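The genes for moving sterols out of and through the cell were almost all detected. All 8 genes of the sterol-sensing LXR receptors and sterol efflux were present, from the canalicular transporter subunit Abcg8 at 5.67 ± 1.07 TPM (SD, n = 2) to the receptor gene Nr1h2 at 29.3 ± 0.431 TPM. Abcg5 and Abcg8, whose products pair to pump sterols into bile, were both higher in pup 2 with intervals apart, by TPM and by TMM scaling: Abcg5 stood at 8.13 and 11.1 TPM and Abcg8 at 4.91 and 6.42 TPM. Abca1, which exports cholesterol to apolipoproteins, was lower at 9.61 and 8.62 TPM, with intervals apart by TPM but not by TMM. These 3 of the 8 genes were named after their values were seen, and 6.27% of all genes were higher and 13.8% lower by that rule. Of 11 genes of sterol traffic inside the cell 10 were detected. Scp2, the sterol carrier, stood highest at 1429 ± 17.6 TPM, and Gramd1b, below 1 TPM in pup 2, lowest at 1.02 ± 0.226 TPM. Of 6 lipoprotein uptake genes 4 were detected, with Lrpap1 highest at 48.7 ± 4.67 TPM. Npc1l1, which takes up cholesterol in the gut and in human liver, had 0 counts in both livers.

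The 13 listed lipogenic targets of SREBP-1c are given beside Srebf1, which was higher in pup 2 by TPM; a relation between them was not tested. Of these 11 were detected. Levels ran from Pnpla3, below the floor at 0.5 ± 0.113 TPM, to the desaturase Fads2 at 222 ± 10.2 TPM. None was higher in pup 2 by the intervals and 5 were lower: Acly, Me1, Gpam, Fads1 and Fads2. By the same rule 6.27% of all genes were higher and 13.8% lower. With TMM scaling 4 were lower, beside 6.75% of all genes.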
